A study of Mus musculus with 20 samples.

Results

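S100a4, S100a6, S100a10, S100a11, Lgals1, Lgals3, Anxa2, Crip1, Vim and Ahnak were described in follicular T cells from the spleens of mixed bone marrow chimeras. They were chosen by name, with earlier results of these data known, as S100, galectin and annexin genes with 3 cytoskeletal companions. All 10 were found, each as 1 row, among the 13798 genes of the expression matrix. Follicular T cells comprise the T follicular helper (Tfh) cells that help B cells in germinal centers and the Foxp3+ T follicular regulatory (Tfr) cells that restrain them.

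The S100 proteins are small calcium-binding proteins that work as dimers and bind partner proteins when calcium rises, and S100a10 instead forms a stable complex with annexin A2 at the plasma membrane. Galectins bind β-galactoside sugars on glycoproteins, and annexins bind acidic membrane lipids in the presence of calcium. In T cells, many of these genes are known to be low in naive and central memory cells and higher in effector cells and in cells that migrate through tissue, together with the intermediate filament vimentin and the membrane scaffold Ahnak.

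All recipients were irradiated congenic CD45.1 mice on the C57BL/6 background, and the analysed cells were donor-derived. In 5 chimeras (564Igi), the donor marrow was WT marrow mixed with marrow from 564Igi mice, which carry a knock-in heavy and light chain B cell receptor against ribonuclear complexes and serve as the autoimmune model. The other 5 chimeras (WT) received WT marrow only and were immunized with NP-OVA in alum at week 6, and all chimeras were sacrificed at week 10, so the knock-in and the absence of immunization cannot be told apart in a comparison of the conditions. CD4+CXCR5+PD-1+ cells were sorted and captured in droplets, and gene expression and T cell receptor (TCR) libraries were sequenced from each mouse. Both conditions held mice of both labelled sexes.

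The 28192 cells came from 10 libraries of 1121 to 4030 cells, with 3424280 to 15241983 raw unique molecular identifiers (UMIs, 1 per captured RNA molecule) each. A paired TCR was matched to 21405 cells (75.9%). The authors' 6 clusters were used as deposited: activated Tfh (11953 cells), Tfr (11650), Sostdc1 Tfh (2803), central memory Tfh (725), effector Tfh (682) and interferon-stimulated (ISG) Tfh (379). Cd3e was detected in 99.4% of cells, Pdcd1 in 75.6%, Cd4 in 67.3%, Cxcr5 in 40.7% and Bcl6 in 10.9%. The myeloid genes Lyz2, Csf1r, Fcer1g, Tyrobp, C1qa, C1qb, S100a8 and S100a9 were together found in 0.510% of activated Tfh cells. Leaving those cells out moved the S100a6 level of activated Tfh cells from 2.080 to 2.079. Other listed macrophage and monocyte genes were more widely detected in activated Tfh cells and were not used to mark cells. They were Ctss (46.7%), Cst3 (41.0%) and Cd68 (2.4%). Among B cell genes, Cd22 was found in 4.37% and Cd79b in 3.52% of all cells. Libraries of mice 34 and 36 were numbered apart from the rest and had the highest mean heat shock scores, at 0.115 and 0.0808, and 988 cells (3.5%) carried a barcode that also occurred in another library. The comparisons of conditions, and those of clonal expansion in the activated Tfh and Tfr clusters, were therefore repeated without those mice and without those cells, and the calls that changed are given below.

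Levels are means per mouse of log2(corrected UMIs + 1) over the cells of a cluster, and differences are differences on that log2 scale. The data are 5′ counts, so levels are compared across clusters and mice for 1 gene at a time and not between genes. The clusters were built from the expression of these same cells, and S100a6 was among the genes used to describe activated Tfh cells, so levels across clusters are a description with no test. The values below are given with their SD over 10 mice, or over the 8 mice that had at least 20 cells for central memory and ISG Tfh cells.

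The 4 S100 genes lie in pairs on chromosome 3 in the GRCm38 assembly (GENCODE vM21), all on the plus strand. S100a4 (chr3:90603771-90606045) ends 6836 bases before S100a6 (chr3:90612882-90624181), and S100a11 (chr3:93520488-93526287) ends 28792 bases before S100a10 (chr3:93555080-93564643). The remaining members are dispersed, with Lgals1 at chr15:78926725-78930465, Lgals3 at chr14:47367751-47386160, Anxa2 at chr9:69453620-69491795, Crip1 at chr12:113146316-113153879, Vim at chr2:13573927-13582826 and Ahnak at chr19:8989284-9076914. S100a4 overlaps Gm42674 and Anxa2 overlaps Mir3109 on the same strand, so reads in those shared parts may not be assignable to either gene. Anxa2 also overlaps Gm16144 on the opposite strand.

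The following 3 upstream sequences are shown because S100a4 and S100a6 are neighbours whose levels moved together from cell to cell, while Crip1, on another chromosome, was among the genes most like S100a6. They come from the RefSeq promoter table (GRCm38.p6), which matched 8 of the 10 members, and hold no GENCODE exon of the gene. They lie just before the RefSeq start, which for Crip1 is inside the GENCODE gene, in an intron of its longer transcripts. Capitals mark CCNCNCCC, the CACCC-type core bound by Krüppel-like factors, on either strand, with overlapping matches joined.
S100a4 (chr3:90603520-90603769, plus strand): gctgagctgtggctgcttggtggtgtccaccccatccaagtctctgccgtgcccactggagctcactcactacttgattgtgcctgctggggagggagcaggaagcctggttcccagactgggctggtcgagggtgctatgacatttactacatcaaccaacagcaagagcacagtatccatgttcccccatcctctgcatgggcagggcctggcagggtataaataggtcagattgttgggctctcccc
S100a6 (chr3:90612644-90612881, plus strand): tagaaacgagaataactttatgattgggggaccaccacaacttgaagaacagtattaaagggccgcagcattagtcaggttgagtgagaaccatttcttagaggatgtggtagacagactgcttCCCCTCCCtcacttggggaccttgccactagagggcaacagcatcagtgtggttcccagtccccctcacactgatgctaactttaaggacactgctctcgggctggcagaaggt
Crip1 (chr12:113151762-113152011, plus strand): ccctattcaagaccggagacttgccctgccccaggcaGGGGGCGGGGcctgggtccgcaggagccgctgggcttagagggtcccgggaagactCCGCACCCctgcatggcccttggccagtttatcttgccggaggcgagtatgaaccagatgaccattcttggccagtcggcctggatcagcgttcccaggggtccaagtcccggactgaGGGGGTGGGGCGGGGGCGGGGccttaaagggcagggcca
The motif had 0 matches in the S100a4 window, 1 in that of S100a6 and 8 in that of Crip1. In windows of 250 bases it was present in 7 of the 8 matched members and in 45.9% of all 32851 promoters. The motif is rich in C and G, and this comparison was not matched for GC content. GC content was 50% for S100a6 and from 57.2% (S100a4) to 67.2% (Crip1) for the other matched members, where the median promoter had 52.4%. TGANTCA, an AP-1-type motif that is its own reverse complement apart from the central base, was present in S100a11 and Anxa2 and in 6.75% of all promoters. These matches describe letters and do not show binding.

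By cluster means, most of the genes were higher in activated, effector and ISG Tfh than in Tfr cells, and low in central memory Tfh cells. Effector Tfh cells were above Tfr cells by less than 1 SD of the within-mouse difference for genes such as S100a6 (0.36 ± 0.42) and Lgals1 (0.12 ± 0.24). Vim was no higher in effector (0.54 ± 0.23) than in Tfr cells (0.57 ± 0.10). Sostdc1 Tfh cells ranged from highest to lowest of the clusters, depending on the gene. For 7 of the 10 genes the lowest mean of the 6 clusters was that of central memory Tfh cells, the exceptions being S100a10 (lowest in Sostdc1 Tfh cells), Anxa2 and Crip1 (both lowest in Tfr cells). A cell of the activated cluster contained at least 1 corrected UMI of 5.76 ± 0.34 of the 10 genes (SD, n = 10 mice), against 5.09 ± 0.22 in Tfr cells and 3.51 ± 0.39 in central memory Tfh cells. At least 8 of the genes were detected together in 22.9% of activated Tfh cells, 9.30% of Tfr cells and 1.84% of central memory Tfh cells. Median raw UMIs per cell, pooled over mice, were 3547, 3461 and 4027 in these clusters. Detection was counted on corrected UMIs, and whether depth played a part in these counts was not tested.

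**Figure D1:**
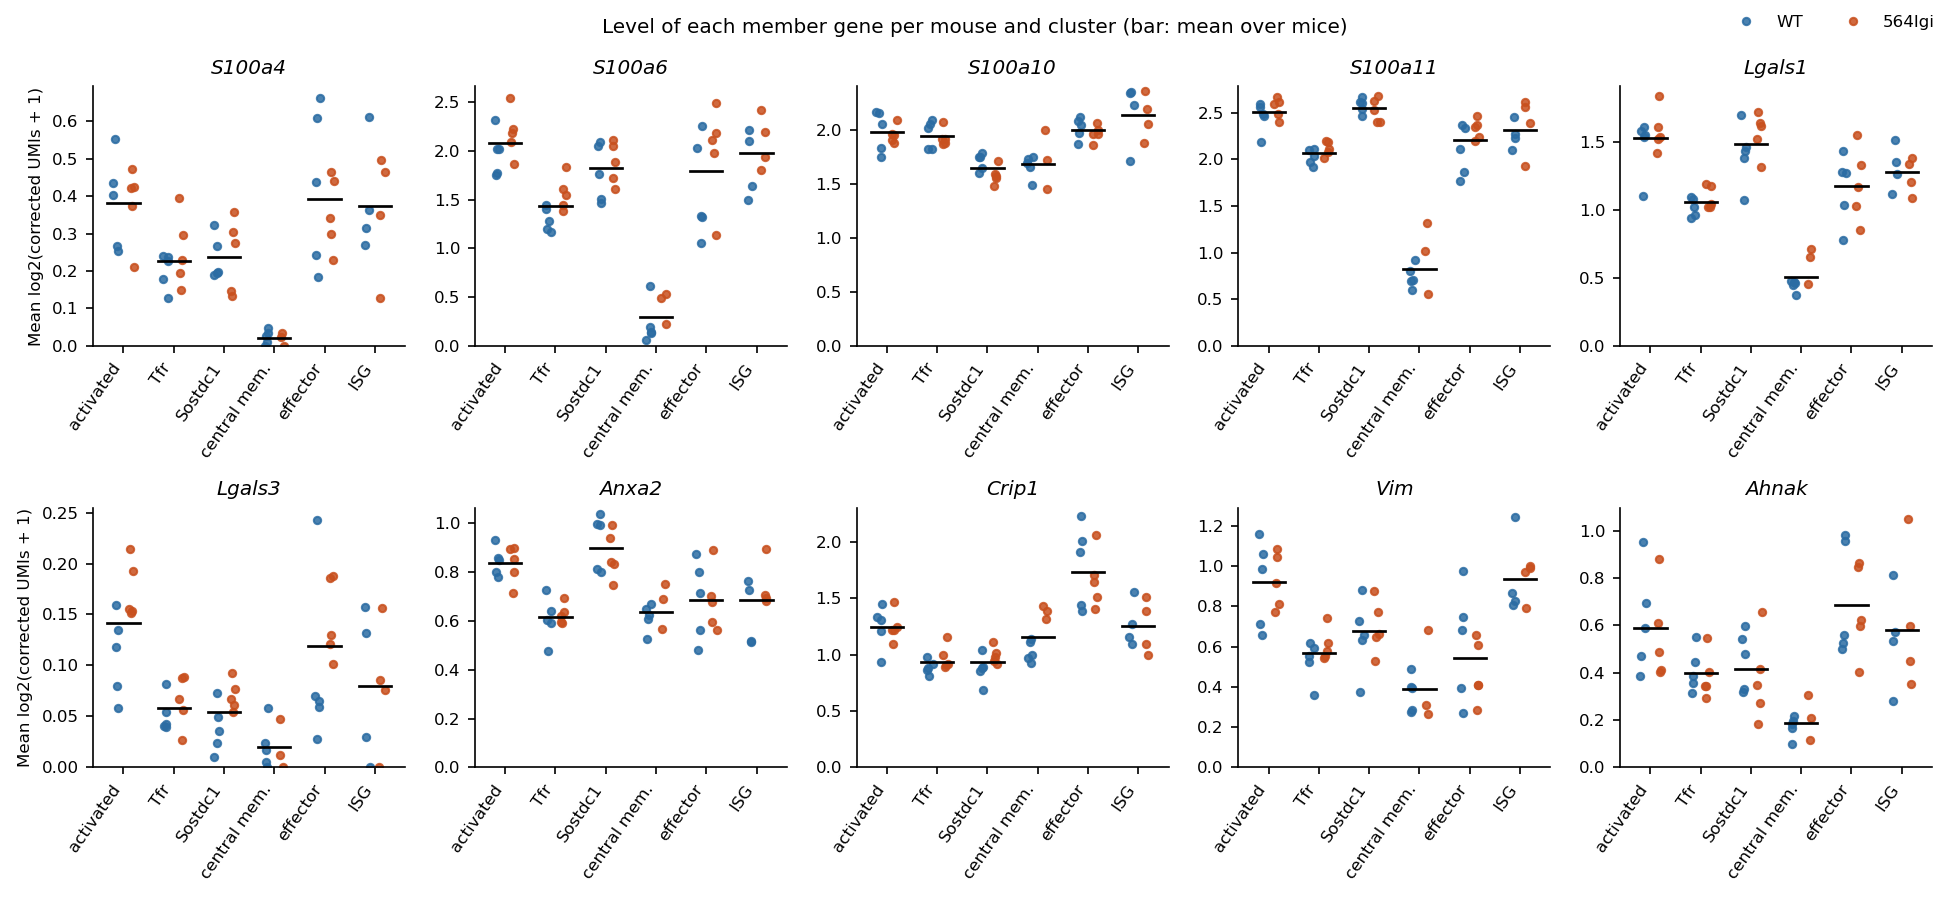
Mean level of each gene per mouse (points, WT in blue and 564Igi in orange) in the 6 clusters, as log2(corrected UMIs + 1), with the mean over mice as a bar. S100a6 had a mean of 2.08 in activated and 0.30 in central memory Tfh cells, and WT and 564Igi points were interleaved in most panels.

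S100a6 (calcyclin), a calcium sensor that binds cytoskeletal and ubiquitin-pathway proteins, was high in each cluster but central memory Tfh. In activated Tfh cells its level was 1.754 in the lowest mouse and 2.542 in the highest, with a mean of 2.08 ± 0.25. The mean was 1.98 ± 0.31 in ISG, 1.83 ± 0.25 in Sostdc1, 1.79 ± 0.52 in effector and 1.43 ± 0.20 in Tfr cells, and it fell to 0.30 ± 0.21 in central memory Tfh cells. Neighbours in this order differed by less than 1 SD of the within-mouse difference, except for Tfr above central memory Tfh cells, which held in 8 of 8 mice.

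S100a4, a myosin-binding S100 protein linked to cell motility, was close to absent in central memory Tfh cells at 0.02 ± 0.02, where 2.22% of cells had a UMI against 24.5% in activated Tfh cells. Its mean was 0.39 ± 0.16 in effector, 0.38 ± 0.11 in activated and 0.37 ± 0.15 in ISG Tfh cells, which did not differ beyond their spread. Sostdc1 Tfh cells (0.24 ± 0.08) and Tfr cells (0.23 ± 0.08) formed a lower pair.

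S100a11, which can bridge annexin A1, was higher in Sostdc1 (2.55 ± 0.10) and activated Tfh cells (2.51 ± 0.14) than in ISG (2.32 ± 0.23), effector (2.21 ± 0.23) and Tfr cells (2.07 ± 0.09). In central memory Tfh cells it was 0.83 ± 0.25. The step from activated to ISG Tfh cells was present in 8 of 8 mice and that from Tfr to central memory Tfh cells in 8 of 8.

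S100a10, the partner of annexin A2, had a different order of clusters. Its means ran from 2.15 ± 0.24 in ISG to 2.0 ± 0.09 in effector, 1.98 ± 0.14 in activated and 1.95 ± 0.10 in Tfr cells, with no step between these neighbours beyond the spread. Central memory Tfh cells had 1.69 ± 0.17 and Sostdc1 Tfh cells 1.65 ± 0.10. Anxa2, which encodes the annexin that S100a10 binds, did not follow this order, being highest in Sostdc1 Tfh cells (0.90 ± 0.10), where S100a10 was lowest.

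Among the galectins, Lgals1 was highest in activated (1.53 ± 0.18) and Sostdc1 Tfh cells (1.49 ± 0.20), lower in ISG (1.28 ± 0.14), effector (1.18 ± 0.25) and Tfr cells (1.06 ± 0.08), and lowest in central memory Tfh cells (0.51 ± 0.11). Lgals3, the chimera-type galectin that forms pentamers, was sparse everywhere, with means of 0.14 ± 0.05 in activated, 0.12 ± 0.07 in effector, 0.06 ± 0.02 in Tfr and 0.02 ± 0.02 in central memory Tfh cells. No step between neighbouring clusters exceeded its spread for Lgals3.

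Crip1, a small LIM-domain protein, had its highest mean in effector Tfh cells, as did S100a4 and Ahnak, at 1.73 ± 0.30 against 1.26 ± 0.21 in ISG Tfh cells, a step present in 7 of 8 mice. Its level of 1.16 ± 0.20 in central memory Tfh cells was above those of Sostdc1 (0.93 ± 0.12) and Tfr cells (0.93 ± 0.10). Vim was highest in ISG (0.94 ± 0.15) and activated Tfh cells (0.92 ± 0.17). Compared with Sostdc1 Tfh cells (0.68 ± 0.15), it was higher in activated Tfh cells in 10 of 10 mice and in ISG Tfh cells in 7 of 8. Ahnak was 0.69 ± 0.21 in effector, 0.59 ± 0.20 in activated, 0.40 ± 0.09 in Tfr and 0.19 ± 0.06 in central memory Tfh cells.

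Within each mouse, 9 of the 10 genes were higher in activated Tfh than in Tfr cells in all 10 mice. The difference was 0.65 ± 0.25 for S100a6, 0.48 ± 0.16 for Lgals1, 0.43 ± 0.08 for S100a11, 0.35 ± 0.13 for Vim and 0.32 ± 0.17 for Crip1. For S100a10 it was 0.03 ± 0.09 and positive in 6 of 10 mice. When only cells with 2500 to 5000 raw UMIs were used, none of these 10 differences moved by more than its SD over mice.

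Detection of the members in single cells was next compared within clusters, to separate co-expression from shared membership of a cluster. For each pair and mouse, the odds of detecting 1 gene (at least 1 corrected UMI) were compared between cells with and without the other, as a log2 odds ratio. In activated Tfh cells all 45 pairs had a mean log2 odds ratio above 0, and 38 of them were above 0 in each of the 10 mice, with a median over pairs of 1.502. In Tfr cells all 45 means were again above 0, 35 pairs were above 0 in every mouse, and the median was 0.92. For comparison, the members were paired with 4682 other genes that were detected in 10% to 95% of activated Tfh cells. Those pairs had a median of 0.11 and a central 95% range from -0.46 to 0.63. With 4796 such genes in Tfr cells the median was 0.09 and the range was from -0.49 to 0.55. Cells of 1 mouse share a library and differ in depth, so these values carry no p. With cells of 2500 to 5000 raw UMIs the medians were 1.41 in activated Tfh and 0.85 in Tfr cells. With that limit, 35 pairs in activated Tfh and 26 in Tfr cells were above 0 in every mouse.

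**Figure D2:**
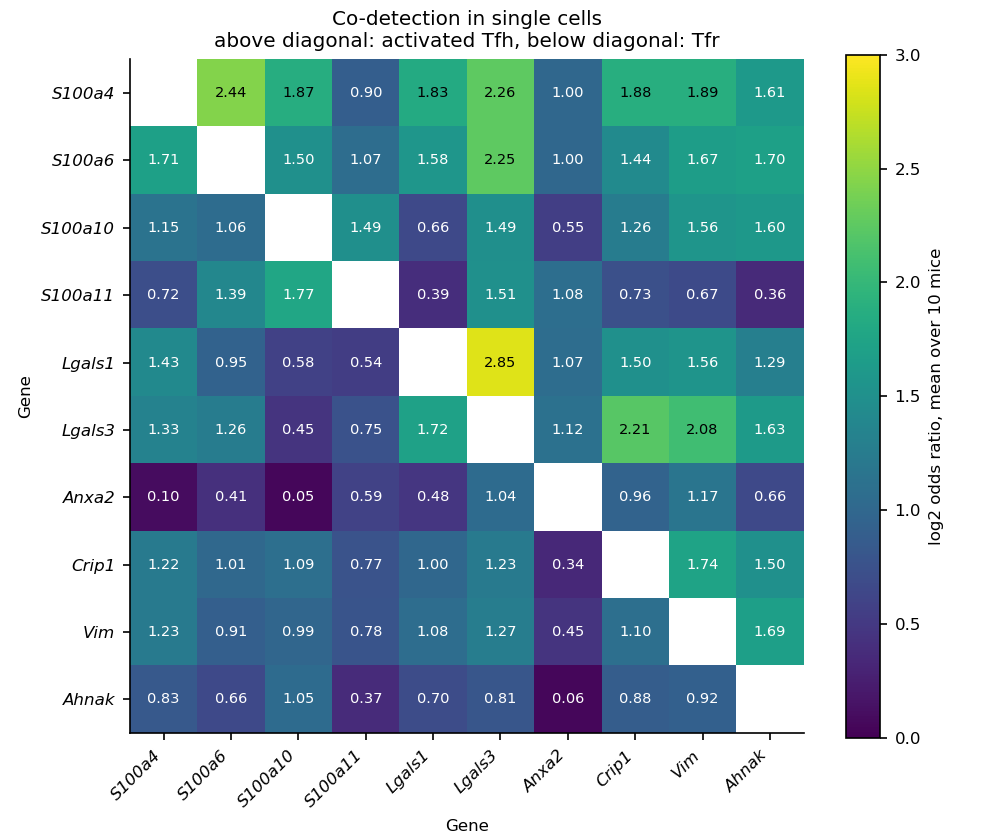
Mean over 10 mice of the log2 odds ratio of co-detection for each pair of genes, above the diagonal in activated Tfh cells and below it in Tfr cells (color scale, log2 units). Values ran from 0.36 to 2.85 in activated Tfh cells and from 0.05 to 1.775 in Tfr cells.

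The galectins Lgals1 and Lgals3 were the most strongly co-detected pair in activated Tfh cells, at 2.85, followed by the chromosomal neighbours S100a4 and S100a6, at 2.445 ± 0.31, where 22.8% of cells had both genes against 18.8% from the product of the shares. S100a11 and Ahnak were at the other end, at 0.36. In Tfr cells the neighbours S100a10 and S100a11 led, at 1.775. The lowest Tfr value, 0.05, belonged to S100a10 and Anxa2, whose products form a complex. Detection was thus shared to a degree that differed among pairs, and the lowest pair of each cluster lay inside the range given for the other genes.

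Correlation over cells was computed for the same genes. They were chosen with earlier results of these data known, so their co-detection and their correlation may reflect that choice. For each member, all genes were ranked by the Pearson correlation of log2 values over activated Tfh cells, computed within each mouse and averaged over 10 mice. Of the 30 places for the 3 most similar genes of each member, 29 were taken by other members, among 9858 genes compared. The exception was Klf2, a Krüppel-like factor that drives genes for T cell circulation, which was the gene most similar to Ahnak (r = 0.37). Among the members, Klf2 itself was closest to Vim (r = 0.43). The highest value was for Crip1 and Vim (r = 0.52), then S100a6 and Lgals1 (r = 0.49). The 45 pairs had a median r of 0.32, with a range from 0.12 to 0.52, and in Tfr cells the median was 0.16. The median r of a member with all genes lay between -0.01 and 0.02, and for S100a6 the 99th percentile over all genes was 0.145. Members held 25 of the 30 places with Spearman correlation, 27 in cells of 2500 to 5000 raw UMIs and 24 in Tfr cells.

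A list of genes of T cell migration and memory moved with the group in activated Tfh cells, and genes of follicular identity did not. Averaged over the 10 members, r was above 0 for 16 of 17 measured migration and memory genes, with a median of 0.17. It was 0.31 for Klf2, 0.31 for the membrane protein gene Emp3, 0.29 for the actin-binding Tagln2, 0.27 for the integrin Itgb7 and 0.23 for S1pr1, the sphingosine-1-phosphate receptor used for exit from lymphoid tissue. Of 12 follicular identity genes 3 were above 0 and the median was -0.06, with -0.14 for the inhibitory receptor Pdcd1 and -0.13 for the follicle-homing receptor Cxcr5. Over all 9859 genes tested, 6859 were above 0 and the median was 0.01. In Tfr cells the medians were 0.06 for the migration and memory genes and -0.02 for follicular identity. The cells had been sorted for CXCR5 and PD-1 protein, and single-cell values share depth, so these are descriptions of covariation within the gate. Known binding partners of the proteins had 7 of 11 genes above 0 in activated Tfh cells, a smaller share than over all genes, and a median of 0.04. They ran from -0.13 for Ptprc to 0.20 for Flna.

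TCR sequences, which the rule for choosing the genes did not use, served to ask whether cells of the same clonotype were alike. The genes were chosen with earlier results of these data known, so their choice may not be independent of clonotype. A clonotype was a set of cells of 1 mouse with the same α and β CDR3 amino acid sequences. The share of cell-to-cell variance that lay between clonotypes was estimated per mouse over clonotypes of at least 2 cells (1133 clonotypes and 5807 cells in activated Tfh, 1062 and 5082 in Tfr cells). In activated Tfh cells this share was 30.2% ± 8.54 for S100a6 (SD, n = 10 mice), from 19.5% in the lowest mouse to 42.7% in the highest, the seventh highest of 9859 genes. It was 21.5% ± 7.07 for Crip1, 20.9% ± 6.81 for Lgals1, 18.2% ± 5.69 for Vim, 17% ± 4.81 for S100a10 and 16.4% ± 6.19 for S100a4. Ahnak (12.4%), S100a11 (10.99%), Lgals3 (10.8%) and Anxa2 (6.82%) were lower. The median over the 10 members was 16.7%, against 0.936% over all genes, whose 99th percentile was 12.6%. In both clusters this background held all genes that passed the filter of 1% of cells. It was not matched to the members for detection, so the ranks and the contrast with all genes may also reflect how widely a gene was detected.

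In Tfr cells the clonal share was lower for 9 of the members, with a median of 7.83% against 0.674% over all genes. S100a6 (14.6% ± 5.22) and Crip1 (10.98% ± 5.36) were above the 99th percentile of all genes of 10.94%. Anxa2 had about the same share in both clusters, 7.01% in Tfr and 6.82% in activated Tfh cells. With clonotypes of at least 5 cells the medians were 13.01% in activated Tfh and 6.998% in Tfr cells.

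**Figure D3:**
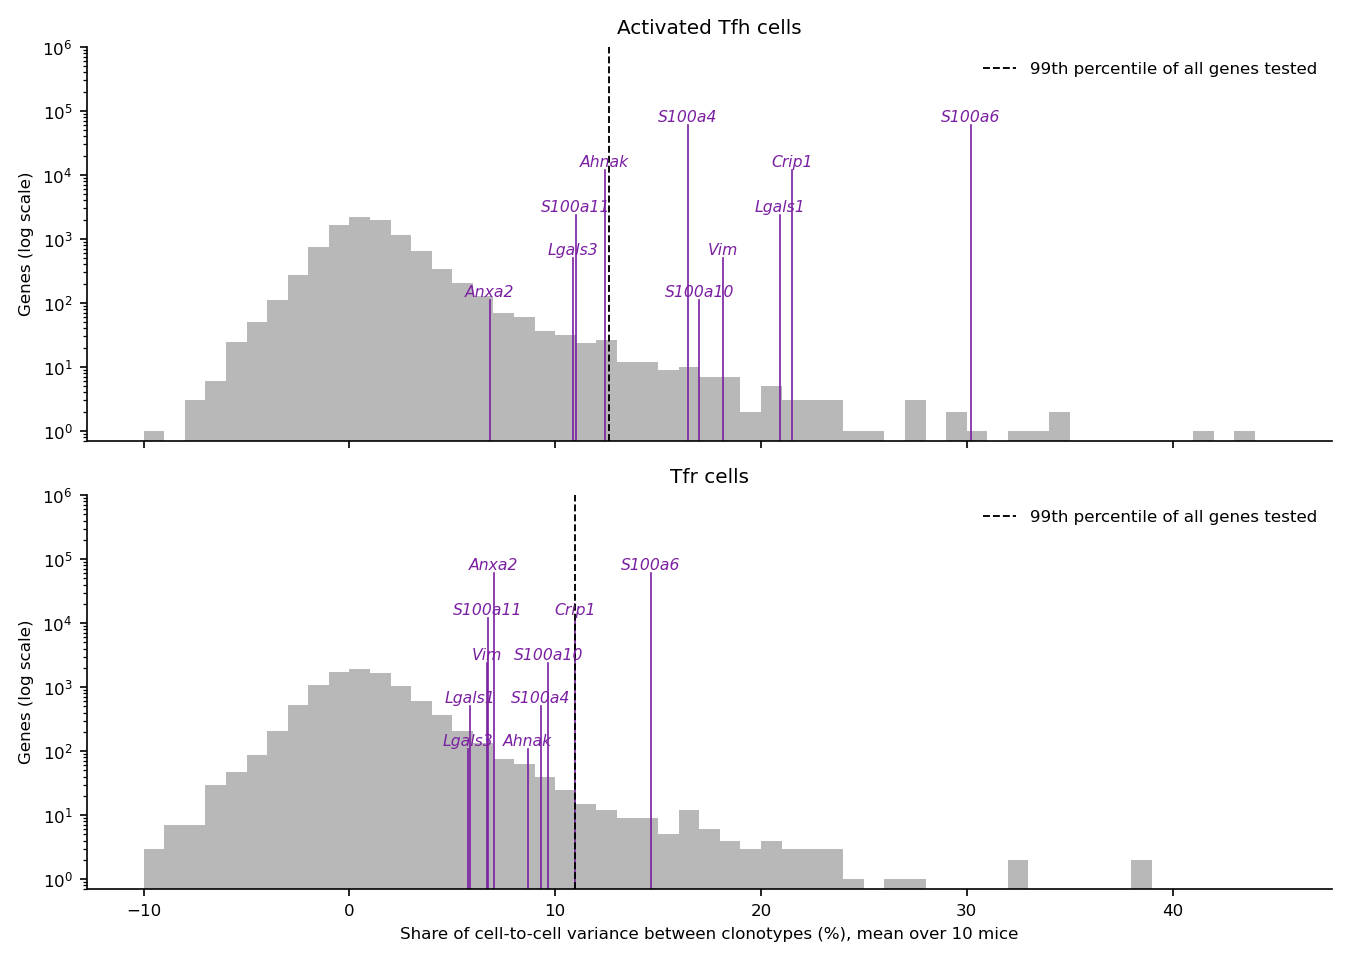
Number of genes (log axis) by the share of cell-to-cell variance that lay between clonotypes, as a mean over 10 mice in percent, in activated Tfh and Tfr cells, with the members as labelled lines and the 99th percentile of all genes dashed. S100a6 stood at 30.2% in activated Tfh and 14.6% in Tfr cells.

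The S100a6 means of large clonotypes, each over as few as 20 cells, are given as a description. Of the 6 mice with at least 4 activated Tfh clonotypes of 20 or more cells, 564Igi mouse 17 had clonotype means from 1.44 to 4.23 over 6 clonotypes, and WT mouse 23 from 0.753 to 4.16 over 6. The means ran from 1.76 to 4.10 over 6 clonotypes in 564Igi mouse 21, from 0.719 to 3.17 over 5 in WT mouse 36 and from 2.51 to 3.59 over 4 in WT mouse 11. In WT mouse 12 the 4 clonotypes lay closer together, from 1.66 to 1.95.

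Clonal expansion was then compared within each mouse, as the mean of cells from clonotypes with at least 3 cells in the TCR table minus that of singletons. Called genes had a limma adjusted p (Benjamini-Hochberg over all genes) below 0.01 and an absolute log2 difference above 0.2. Both conditions entered, since each difference is within a mouse. In activated Tfh cells (2416 singleton and 5783 expanded cells), 3 of the 10 members were called, S100a6 and S100a11 higher and Vim lower in expanded clonotypes, where 0.183% of 9859 genes were called. In Tfr cells (2972 and 4937 cells) 1 member was called, S100a6, against 0.0700% of 9994 genes, and in Sostdc1 Tfh cells S100a6 was the single gene called, 0.0104% of 9575. Expanded cells had fewer raw UMIs than singletons in 9 of 10 mice in both large clusters, with a median ratio of 0.878 in activated Tfh and 0.937 in Tfr cells. The part of depth in the results was examined with cells of 2500 to 5000 raw UMIs.

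S100a6 rose with expansion in both large clusters. In activated Tfh cells the mean was 1.90 ± 0.28 in singletons and 2.18 ± 0.28 in expanded cells, and the within-mouse differences had a lowest value of -0.01, a median of 0.23 and a highest value of 0.85. It was higher in 9 of 10 mice, the exception being WT mouse 36, and the log2 difference was 0.29 (SD over mice 0.26, SE 0.05, limma adjusted p = 0.000452, exact permutation p over mice of 0.00391). In Tfr cells the differences ran from 0.17 to 0.60 with a median of 0.37, and all 10 mice were higher, from a singleton mean of 1.24 ± 0.18 to 1.59 ± 0.21. The Tfr difference was 0.35 (SD over mice 0.13, SE 0.03, limma adjusted p = 1.43e-09, exact permutation p = 0.00195, the smallest that 10 mice allow). With 2500 to 5000 raw UMIs the differences were 0.40 and 0.35, and with every expanded clonotype weighted equally they were 0.24 and 0.28, and S100a6 was called in each of these.

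S100a11 rose in 10 of 10 mice in activated Tfh cells, from 2.36 ± 0.17 in singletons to 2.58 ± 0.12 in expanded cells. The differences ran from 0.03 in 564Igi mouse 21 to 0.39 in WT mouse 23, with a mean of 0.22 (SE 0.04, limma adjusted p = 0.000152). It was also higher in 10 of 10 mice in Tfr cells, where the mean of 0.19 (SE 0.03, limma adjusted p = 0.000296) was under the limit of 0.2. Without 564Igi mouse 21 or 34 it was 0.21 in either case, and S100a11 was then called in Tfr cells. Across all genes, 2.97% moved in the same direction in every mouse in activated Tfh cells and 1.70% in Tfr cells, against 1 of the members (S100a11) in activated Tfh and 3 (S100a4, S100a6 and S100a11) in Tfr cells. With every expanded clonotype weighted equally, S100a11 in activated Tfh cells was at 0.16 with an adjusted p of 0.00437, so that S100a6 was the 1 member still called there.

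Vim and Crip1, the pair with the highest correlation, were lower in expanded activated Tfh cells. Vim went from 1.06 ± 0.22 in singletons to 0.85 ± 0.17, with differences from -0.49 in WT mouse 36 to 0.12 in 564Igi mouse 17. It was lower in 9 of 10 mice (log2 difference -0.21, SD over mice 0.19, SE 0.04, limma adjusted p = 0.000264, exact permutation p = 0.00977). Crip1 went from 1.39 ± 0.22 to 1.19 ± 0.17 and was lower in the same 9 mice. Its difference was -0.20 (SD over mice 0.21, SE 0.04, limma adjusted p = 0.00217, exact permutation p = 0.0176), just inside the size limit. For Vim the difference was -0.11 (adjusted p = 0.0599) in cells of 2500 to 5000 raw UMIs, -0.12 (adjusted p = 0.0303) with clonotypes weighted equally and -0.18 (adjusted p = 0.00780) without mice 34 and 36, so the call was lost in each. Leaving out WT mouse 12, 23 or 36 or 564Igi mouse 24 alone also took Vim inside the size limit, at -0.18, -0.19, -0.18 and -0.20, and leaving out WT mouse 14 or 564Igi mouse 17, 21 or 34 took Crip1 past it, at -0.22, -0.24, -0.22 and -0.20. The Crip1 difference was -0.11 in cells of 2500 to 5000 raw UMIs and -0.10 with clonotypes weighted equally. S100a10 was at -0.11 (limma adjusted p = 0.0431) and Anxa2 at 0.07 (adjusted p = 0.0375), and neither was called. The galectins Lgals1 (0.05) and Lgals3 (0.00), S100a4 (0.02) and Ahnak (-0.04) had adjusted p from 0.368 to 0.902. Over the 10 members the median difference was 0.01 with 6 above 0, against -0.01 over all genes, of which 27.9% were above 0.

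**Figure D4:**
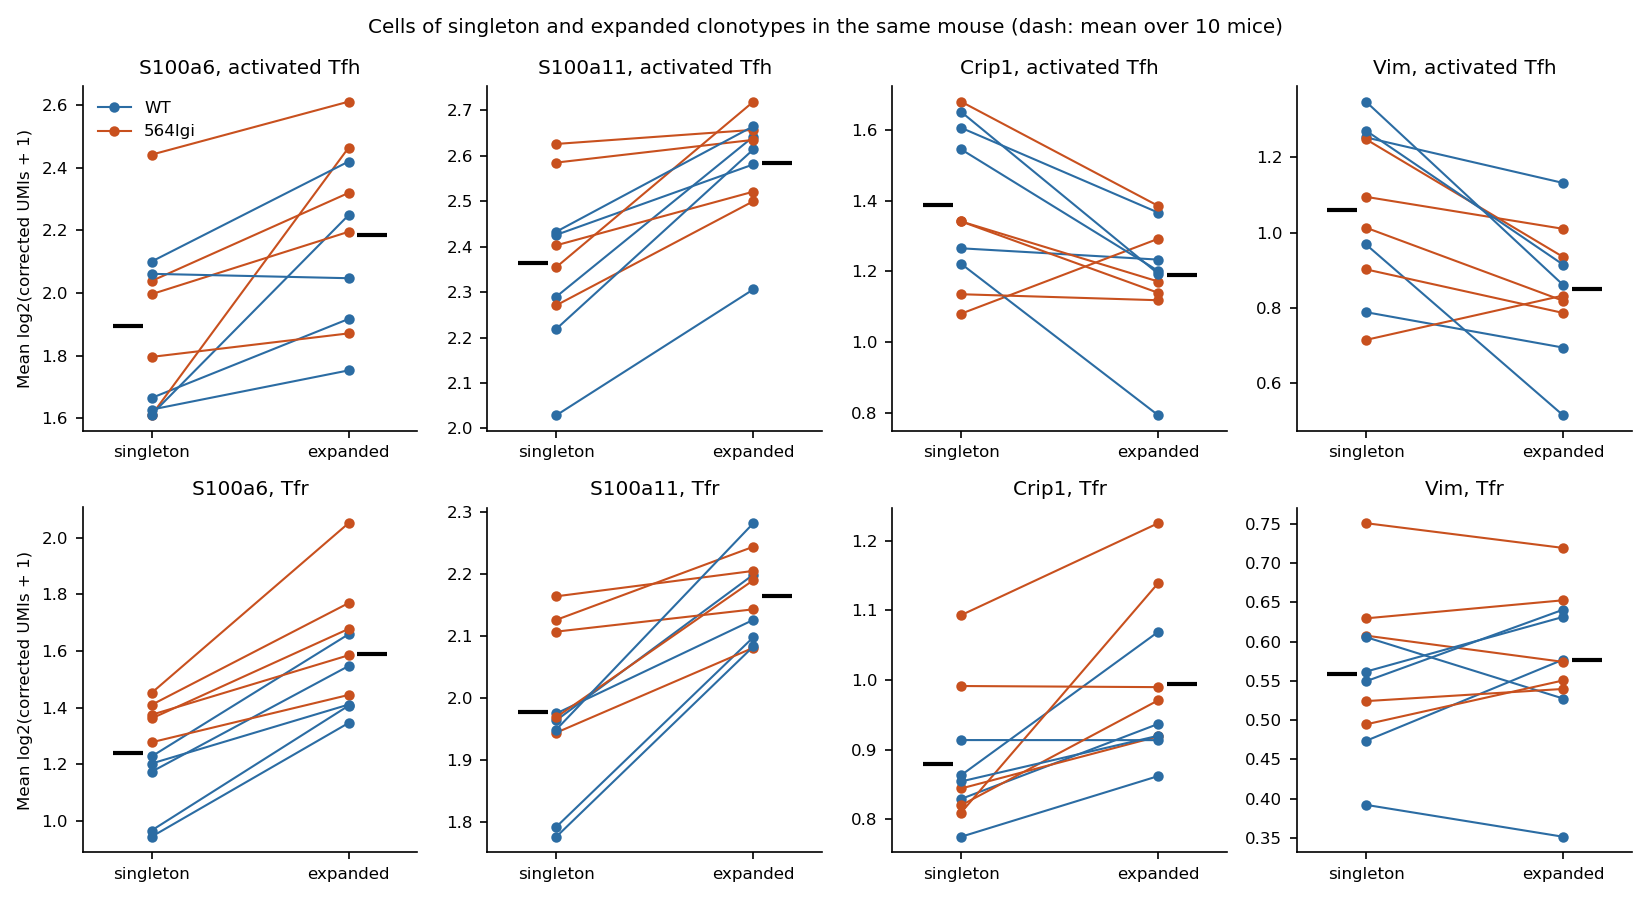
Mean level per mouse, as log2(corrected UMIs + 1), in cells of singleton and expanded clonotypes for S100a6, S100a11, Crip1 and Vim (lines join the cells of 1 mouse, WT in blue and 564Igi in orange, black dashes are means over 10 mice). S100a6 and S100a11 rose in all 10 mice in Tfr cells (lower row), while Crip1 and Vim were lower in 9 of 10 mice in activated Tfh cells (upper row); the y axes do not start at 0.

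In Tfr cells, Crip1 was instead higher in expanded clonotypes in 8 of 10 mice, at 0.12 (SD over mice 0.10, SE 0.02, limma adjusted p = 0.00373, exact permutation p = 0.00781), and Vim was at 0.02 (adjusted p = 0.613). Each mouse's difference in Tfr cells minus that in activated Tfh cells was tested after these values had been seen. It was 0.31 for Crip1 (SD over mice 0.21, limma adjusted p = 9.67e-06, exact permutation p = 0.00391). For Vim it was 0.23 (SD over mice 0.19, limma adjusted p = 0.000146, exact permutation p = 0.00586). Both were above 0 in 9 of 10 mice, and these 2 members were called where 0.0626% of 9582 genes were. In cells of 2500 to 5000 raw UMIs Crip1 remained called at 0.23 (adjusted p = 0.00334) and Vim did not (0.13, adjusted p = 0.1145). Without WT mouse 36 the Vim value was 0.19, under the size limit. With clonotypes weighted equally neither was called, at 0.19 (adjusted p = 0.0216) and 0.13 (adjusted p = 0.123). Anxa2, S100a11 and S100a4 were higher in expanded Tfr cells by 0.13, 0.19 and 0.06, with limma adjusted p of 0.000190, 0.000296 and 0.0275, all under the size limit. Lgals1 was at 0.09 (adjusted p = 0.0802), Lgals3 at 0.02, S100a10 at 0.00 and Ahnak at -0.04. In Tfr cells 9 members were above 0 with a median of 0.07, against -0.00 over all genes, of which 28.6% were above 0.

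In Sostdc1 Tfh cells, 7 mice had enough cells (340 singleton and 1337 expanded). S100a6 was higher in expanded clonotypes in 6 of 7, by 0.39 (SE 0.07, limma adjusted p = 0.00810, exact permutation p = 0.0313). The call was lost when 564Igi mouse 17, WT mouse 11, WT mouse 23 or WT mouse 36 was left out (adjusted p = 0.0571, 0.0851, 0.0845 and 0.0325), without the cells that share a barcode (adjusted p = 0.0114) and with clonotypes weighted equally (adjusted p = 0.736).

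Other genes of the lists were called with expansion. In the follicular identity list, 1 of 12 genes, Pdcd1, was higher in expanded cells of both clusters, by 0.33 in activated Tfh (limma adjusted p = 8.29e-06) and 0.23 in Tfr cells (adjusted p = 3.76e-06), with a list median of 0.09 in activated Tfh and 0.02 in Tfr cells. In activated Tfh cells 1 of 5 T cell markers was called, Cd3e, a chain of the TCR complex, at 0.26 (limma adjusted p = 1.87e-06), with all 5 above 0 and a list median of 0.17, and 1 of 7 cluster markers tested, Tnfsf8, the CD30 ligand, at 0.26 (limma adjusted p = 9.74e-06). Neither was called in Tfr cells, where Cd3e was at 0.10 and Tnfsf8 at -0.04. For the Tfr minus activated difference, Tnfsf8 (-0.30, limma adjusted p = 3.15e-07) and the TCR-signal inhibitor Cd5 (-0.23, limma adjusted p = 7.59e-05) were called in the direction opposite to Crip1 and Vim. None of the 17 migration and memory genes tested was called in either cluster by limma, with 5 and 4 of them above 0, and none of the other S100, galectin and annexin genes was called. Whether expansion acted differently in the 2 conditions was also tested after the data were seen. None of the members was called for a 564Igi minus WT difference in activated Tfh (0% of 9859 genes) or Tfr cells (0.010% of 9994). The lowest limma adjusted p of a member was 0.635 in activated Tfh (Vim) and 0.179 in Tfr cells (Anxa2).

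The conditions were compared last, with mice as replicates. No member was called in all follicular T cells by limma with a variance trend, nor by limma without the trend, against 0.010% of 9959 genes called. The corrected values were computed by the authors for each condition on its own, which limits what a difference between conditions can show. Of the 10 members 8 were on the higher side in 564Igi chimeras, with a median of 0.05 over members and -0.00 over all genes. For no member were the mice of the conditions apart in all cells, as they were for 0.452% of genes.

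S100a6 in all follicular T cells was 1.626, 1.475, 1.386, 1.821 and 1.673 in WT mice 14, 11, 12, 23 and 36. In 564Igi mice 17, 24, 13, 21 and 34 it was 1.934, 2.112, 1.845, 1.805 and 1.675. WT mouse 23 lay above 564Igi mice 21 and 34, so the groups overlapped, and the difference of 0.28 (SE 0.10) had an unadjusted limma p of 0.0110 and an adjusted p of 0.9997. Adjusted p for S100a6 was 0.266 with labelled sex as a covariate, 0.808 with the heat shock score and 0.760 without mice 34 and 36. When activated Tfh, Tfr and Sostdc1 Tfh cells were given equal weight, the difference was 0.19.

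Lgals3 was 0.0922, 0.0550, 0.0453, 0.0940 and 0.0908 in the same WT mice. In the 564Igi mice it was 0.119, 0.144, 0.122, 0.0914 and 0.106. WT mouse 23 and WT mouse 14 lay above 564Igi mouse 21, and the other 564Igi mice lay above every WT mouse. The difference was 0.04 (SE 0.01, limma adjusted p = 0.796). The other 8 members differed by -0.03 to 0.14 between conditions, with S100a11 at 0.14 and Lgals1 at 0.12.

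**Figure D5:**
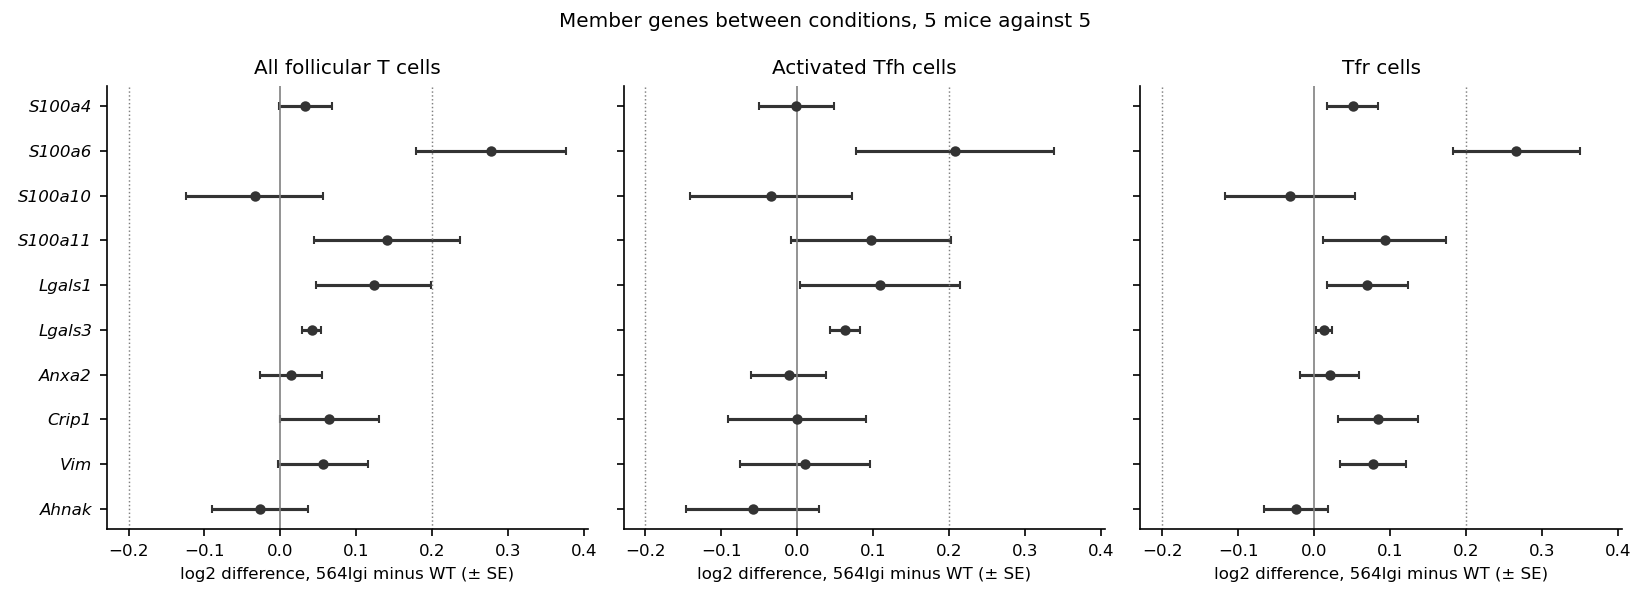
Log2 difference of each gene between 564Igi and WT chimeras (points, bars are ± SE from limma, 5 mice against 5) in all follicular T cells, activated Tfh and Tfr cells, with the size limit of 0.2 dotted. S100a6 was at 0.28, 0.21 and 0.27 and no member was called.

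Within clusters, no member was called by limma with or without the trend. Called genes made up 0.0101% of those tested in activated Tfh, 0.0200% in Tfr, 0.0202% in Sostdc1, 0% in central memory, 0.0104% in effector and 0.0106% in ISG Tfh cells. The members with an unadjusted limma p below 0.05 numbered 1, 1, 1, 3, 0 and 0 in the same order. These counts were not set against the share of all genes below that limit and are not read as a result. S100a6 differed by 0.27 in Tfr cells (limma adjusted p = 0.650) and by 0.21 in activated Tfh cells (limma adjusted p = 0.9997). No member was called for a different condition effect in Tfr and activated Tfh cells (0% of 9582 genes called). The lowest limma adjusted p of a member was 0.429, for Lgals3.

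Crip1 in central memory Tfh cells was the 1 member whose mice were apart in any cluster. It was 0.993, 0.972, 1.135, 1.115 and 0.922 in WT mice 14, 11, 12, 23 and 36, and 1.39, 1.43 and 1.31 in 564Igi mice 17, 24 and 13, the 3 with at least 20 such cells. The difference was 0.35 (SE 0.10, limma adjusted p = 0.381), and 4.77% of 10351 genes had mice that did not overlap in this comparison of 5 mice with 3.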

How the data were processed

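Sorted splenic follicular T cells of 10 chimeras were profiled by 10x Genomics 5′ gene expression and TCR libraries. According to the submitters' processing notes, the tools were Cell Ranger 4.0.0 and Seurat 3.1.4 and the genome was GRCm38. The deposited expression values are natural log values of (UMI + 1) after sctransform, which the authors ran for each condition on its own. The authors also deposited, per cell, the raw UMI count, the percent of UMIs from mitochondrial and ribosomal genes, a heat shock score, and the cluster, library and condition names. The deposited TCR table gives the CDR3 amino acid sequences of 33833 cells.

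Natural log values were returned to corrected UMIs, converted to log2(corrected UMIs + 1), a scale on which differences of low genes are understated, and averaged per mouse. Mice with fewer than 20 cells in a cluster were left out of it. A gene entered a test if 1% or more of the cells had it in 5 or more mice, or in a number of mice equal to the smaller group. Tests used limma (version 3.58.1, under R 4.3.3), with the prior variance following mean expression. Calls required a p below 0.01 after adjustment by Benjamini and Hochberg, together with a log2 difference beyond 0.2 in size. Expanded clonotypes held at least 3 cells of a mouse's TCR table and singletons 1, and the within-mouse difference was tested against 0, with a two-sided exact sign-flip permutation test for single genes. The limma procedure was tested on simulated data in which 200 genes were changed. Each mouse is a replicate, and replicate numbers follow accession order and pair nothing. No doublet caller was run, and all columns were assigned to a sample.

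The members and gene lists were chosen with earlier results of these data known. All 10 members are named, with the 3 genes most correlated with each in activated Tfh cells and list genes that were called, and the other list genes given as examples were chosen after their values were seen. Alternatives covered normalization trend, filters, covariates, depth, weighting of clonotypes and leaving out each mouse. The tests of expansion between clusters and between conditions, the similarity ranking in Tfr cells, the depth limit within clusters, and the fits without cells sharing a barcode or (within clusters and for expansion) without mice 34 and 36 were added after seeing the data.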

Additional observations from a re-analysis of the deposited data

Results flagged for a closer look

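In 80 groups of 5 or 10 mouse means, 5 had a mouse far from the others by Dixon's criterion, and chance alone gives about 1 in 20 groups. WT mouse 12 had the lowest level of Lgals1 in all follicular T cells (0.999, with the nearest WT mouse at 1.26), of Lgals1 in activated Tfh cells (1.11 against 1.54) and of Crip1 in all follicular T cells (0.859 against 1.09). Among 564Igi chimeras, mouse 24 was high for Lgals1 in all follicular T cells (1.55 against 1.34) and mouse 17 for S100a10 in Tfr cells (2.08 against 1.92). The difference between expanded and singleton clonotypes was not the same in Tfr and activated Tfh cells for Crip1 (0.31 higher in Tfr cells) and Vim (0.23 higher), by the limma test of the within-mouse difference.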

How the results depend on the processing

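No member was called between conditions under any alternative run, with each mouse left out included. No paired analysis was possible because the labels give mice of the 2 conditions no shared replicate numbers, and the numbers used here follow accession order. For clonal expansion, 3 members were called in activated Tfh cells (2 to 4 with each mouse left out), 1 with clonotypes weighted equally and 0 without the pairing of cells within mice. In Tfr cells 1 was called (1 to 2 with each mouse left out), 2 with expanded clonotypes of 10 or more cells, 2 with 2500 to 5000 raw UMIs and 0 without the pairing. In Sostdc1 Tfh cells 1 was called (0 to 1 with each mouse left out), and 0 with 10 or more cells, without the pairing, with equal weights or without shared barcodes. The Tfr minus activated difference had 2 (1 to 2 with each mouse left out), with 1 under the depth limit, 1 with 10 or more cells, 1 without mice 34 and 36, and 0 with equal weights. The co-detection median was 1.22 when the cells of all clusters were pooled, against 0.92 in Tfr cells alone. Signs turned only for differences close to 0. Anxa2 between conditions was -0.0161 with clusters weighted equally (-0.0135 to 0.0341 with each mouse left out), Vim ran from -0.00168 to 0.0870 and Ahnak from -0.0907 to 0.0254. For expansion in activated Tfh cells, S100a4 ran from -0.000789 to 0.0303 and Lgals3 from -0.00775 to 0.00975. In Tfr cells S100a10 was -0.0326 with 10 or more cells and -0.0716 with equal weights (-0.0181 to 0.0305 with each mouse left out), and Vim was -0.0131 with 10 or more cells. The causes were not tested. Leaving out cells with more than 1 α or β sequence removed no cell and was not run. Separate normalization by condition, 5 mice a group and few cells in the small clusters limit the condition comparisons.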

Other observations

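Other genes of the same families were also detected in these cells. S100a13 had a UMI in 53.3% of cells and S100a1 in 1.82%. Among the annexins, Anxa5 was found in 39.0%, Anxa11 in 38.9%, Anxa6 in 32.4% and Anxa7 in 20.1% of cells. Anxa6 was found in 51.8% of effector and 18.6% of Sostdc1 Tfh cells, and Anxa1, an annexin known from effector and regulatory leukocyte responses, in 0.643% of all cells.

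Lgals9, a tandem-repeat galectin known to respond to interferon, had a UMI in 81.6% of ISG Tfh cells and in 31.4% to 46.3% of the cells of the other clusters. The summed level of the 5 other measured galectin genes was 2.10 to 3.45 corrected UMIs per cell over WT mice and 1.68 to 2.79 over 564Igi mice in ISG Tfh cells, against 0.642 to 0.763 and 0.550 to 0.756 in activated Tfh cells. The ISG cluster was built from interferon-stimulated genes of the same cells, so these values are a description with no test.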
